A study of Mus musculus with 30 samples.

Results

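Interferon-stimulated genes are the genes that a cell switches on after it has sensed foreign nucleic acid or received interferon from a neighbour. They were examined here in quadriceps muscle of mice that were given a CTG-repeat-targeting oligonucleotide, its polymer carrier or both. The set comprised 9 named genes, *Isg15*, *Ifit1*, *Ifit3*, *Irf7*, *Usp18*, *Bst2*, *Rsad2*, *Ifi27l2a* and *Oasl2*, out of 56748 genes in the count table. They were taken by name, and earlier results of these data were known when they were chosen. All 9 passed the filter on low counts, which left 17518 genes for testing.

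Poly(A) RNA from quadriceps of 30 mice was sequenced to ask what the oligonucleotide L9, an antisense oligonucleotide made of locked nucleic acid, does to muscle when it is given free or on a carrier. The carrier, Brush, is a bottlebrush polymer of polyethylene glycol, and its conjugate with L9 is called pacDNA-L9. Wild-type mice were FVB/N (WT, n = 5). Every other group was HSA-LR, the line HSA-LR20b on the FVB/N background, in which a human skeletal actin transgene carries an expanded CTG repeat. Because the skeletal actin promoter drives that transgene, the line models the muscle part of myotonic dystrophy only. Of the HSA-LR mice, 8 were nontreated (NT). Of those treated with pacDNA-L9, 4 mice received 5.3 mg/kg, 3 mice the middle dose of 21.2 mg/kg and 3 mice the highest dose of 42.4 mg/kg. Free L9 went to 3 mice and pacDNA-Scr, the conjugate with a scrambled sequence, to 2, both at 5.3 mg/kg, and 2 mice were given 40 nanomoles of Brush without an oligonucleotide. Mice were 8 weeks old, injections went into the tail vein, and muscle was taken 2 weeks after the last injection. The 21.2 mg/kg mice had 4 injections and the 42.4 mg/kg mice 8, so that dose and number of injections cannot be told apart.

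The induction works in steps. Sensors of foreign RNA or DNA act through kinases and the factors IRF3 and IRF7 on the interferon genes. Secreted type I interferon binds the receptor IFNAR, whose kinases JAK1 and TYK2 activate a transcription factor complex that contains IRF9 and binds the interferon-stimulated response element (ISRE) in the promoters of its targets. Interferon gamma signals through another receptor and kinases that include JAK2, and many of its targets carry the gamma-activated site (GAS). Oligonucleotides and their carriers can set off these sensors, chiefly in immune cells, and the response usually declines once the stimulus is gone.

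Among the 9 genes, IRF7 is the transcription factor that amplifies interferon production. IFIT1 binds foreign RNA and blocks its translation, and IFIT3 belongs to the same family. RSAD2, or viperin, makes an antiviral nucleotide analogue, BST2, or tetherin, holds budding virus on the cell surface, and OASL2 belongs to the oligoadenylate synthetase family. ISG15 is a ubiquitin-like protein that is attached to other proteins, and USP18 removes it and also dampens signalling at IFNAR. IFI27L2A is a small hydrophobic protein that is strongly induced by type I interferon.

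In the annotation of build GRCm39, *Ifit3* (chr19:34560899-34566443) and *Ifit1* (chr19:34618271-34632174) lie near each other on the plus strand, and *Rsad2* (chr12:26492745-26506451) and *Ifi27l2a* (chr12:103399975-103409950) are on the minus strand of the same chromosome. *Isg15* is at chr4:156283883-156285303, *Oasl2* at chr5:115034997-115050295, *Usp18* at chr6:121222848-121247877, *Irf7* at chr7:140842619-140846398 and *Bst2* at chr8:71986895-71990114. All 9 are protein-coding. *Ifit3* shared 16.7% of its 100-base stretches with *Ifit3b*, and *Isg15* shared 16.5% with *Gm46878*, a gene on the opposite strand that covers 31.1% of its exon bases. The counting options are not given in the sources used here, so that part of the reads of these genes could have been split or dropped.

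RefSeq promoter windows (GRCm38.p6, 300 bases, 250 of them before the transcription start) were given for 7 of the 9 genes. *Usp18* and *Ifi27l2a* had none. An ISRE was searched as GAAANNGAAA and a GAS as TTCNNNGAA, on both strands. An ISRE was present in 5 of the 7 windows, in 36.6% of the 131 windows of the wider interferon lists described below and in 3.44% of all 32851 windows. A GAS was present in 1 of the 7, in 25.2% of the wider lists and in 8.30% of all windows. The stretches before the start that hold an ISRE are printed 5′ to 3′ on the strand of the gene, because they are the element through which interferon is known to act on such genes. Capitals mark the ISRE, and matches on the other strand read as its reverse complement.
Isg15, chr4:156200855-156200916, minus strand: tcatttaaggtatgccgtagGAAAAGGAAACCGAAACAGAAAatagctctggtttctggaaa
Ifit1, chr19:34640765-34640833, plus strand: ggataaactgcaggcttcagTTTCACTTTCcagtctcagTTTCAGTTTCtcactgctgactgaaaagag
Ifit3, chr19:34583353-34583436, plus strand: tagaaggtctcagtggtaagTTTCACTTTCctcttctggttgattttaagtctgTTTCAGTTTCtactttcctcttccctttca
Bst2, chr8:71537567-71537628, minus strand: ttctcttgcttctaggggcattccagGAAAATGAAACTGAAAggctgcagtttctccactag
Rsad2, chr12:26456543-26456592, minus strand: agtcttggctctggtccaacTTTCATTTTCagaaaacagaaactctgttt
In *Isg15* 3 matches overlapped one another, 57 to 78 bases before the start. *Bst2* held 2 overlapping matches, and its GAS, TTCCAGGAA, overlapped the first of them. A match describes letters in the window and not a bound site.

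The libraries held 13605309 to 26956558 counts. They came in a first deposited set of 24 and a second of 6 (2 NT, 2 at 5.3 mg/kg, 1 at 21.2 mg/kg, 1 free L9). The sets lay apart on the first principal component, which held 59.9% of the variance, and 5 libraries of the second set listed every mitochondrial gene at 0. Within the first set, free L9 mouse B stood apart, with 14438 genes detected at equal depth against 17479 to 21070 in the other 29 libraries and 22.3% of its counts on mitochondrial genes. The 5 markers of muscle fibres (*Acta1*, *Ckm*, *Myh4*, *Tnnt3*, *Pvalb*) summed to 81249 to 161670 CPM in every library. By *Xist* and Y-linked genes, NT held 4 females and 4 males and the 42.4 mg/kg group 3 females. CPM are counts scaled to a common library size (counts per 1e6 counts) after TMM normalization. Changes are log2 fold changes from edgeR's quasi-likelihood test, each with its standard error (SE), and p-values were adjusted for all tested genes, those under 0.05 being said to pass. In bulk muscle, fewer cells of a type and less RNA per cell cannot be told apart.

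The interferon-stimulated genes were weakly expressed in quadriceps. Per kilobase of exon, the mean level over the 30 mice was 11.1 CPM for *Ifi27l2a* and 3.94 CPM for *Bst2*. It was 0.660 for *Isg15*, 0.393 for *Ifit3*, 0.329 for *Irf7*, 0.270 for *Rsad2*, 0.254 for *Usp18*, 0.175 for *Oasl2* and 0.0677 CPM per kilobase for *Ifit1*. Of all genes tested, 87.1% were below *Ifi27l2a*, 71.4% were below *Bst2* and 35.5% below *Isg15* on this scale, and only 5.77% were below *Ifit1*. The median library held 10 counts of *Isg15*, 6.5 of *Ifit1*, 22.5 of *Ifit3* and of *Rsad2*, 24 of *Irf7*, 14.5 of *Usp18*, 20.5 of *Oasl2*, 88.5 of *Bst2* and 147 of *Ifi27l2a*. At this depth the resolution was coarse, since 1 count was worth 0.0352 to 0.0894 CPM on the TMM scale.

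The interferon ligands themselves were at the limit of detection. Of 21 ligand genes, which comprised the listed *Ifna* genes, *Ifnb1*, *Ifne*, *Ifnk*, *Ifnz*, *Ifng*, *Ifnl2* and *Ifnl3*, 19 had 0 counts in all 30 libraries. *Ifnz* had 8 counts in all, at most 3 in a library, and *Ifna9* had 1. Together these were 9 counts over the whole series, and no ligand passed the filter.

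In none of the 11 comparisons did any of the 9 genes pass the threshold in edgeR's quasi-likelihood test. With DESeq2's Wald test *Rsad2* passed in pacDNA-Scr against NT and *Isg15* in the dose trend, and both were lower. The comparisons were NT against WT, the 6 treated groups against NT, the trend over the pacDNA-L9 doses and the 3 pairs of agents given at 5.3 mg/kg. The 6 treated groups share the NT mice, so that their estimates are not independent of each other. The values of every mouse are plotted by group.

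**Figure D1:**
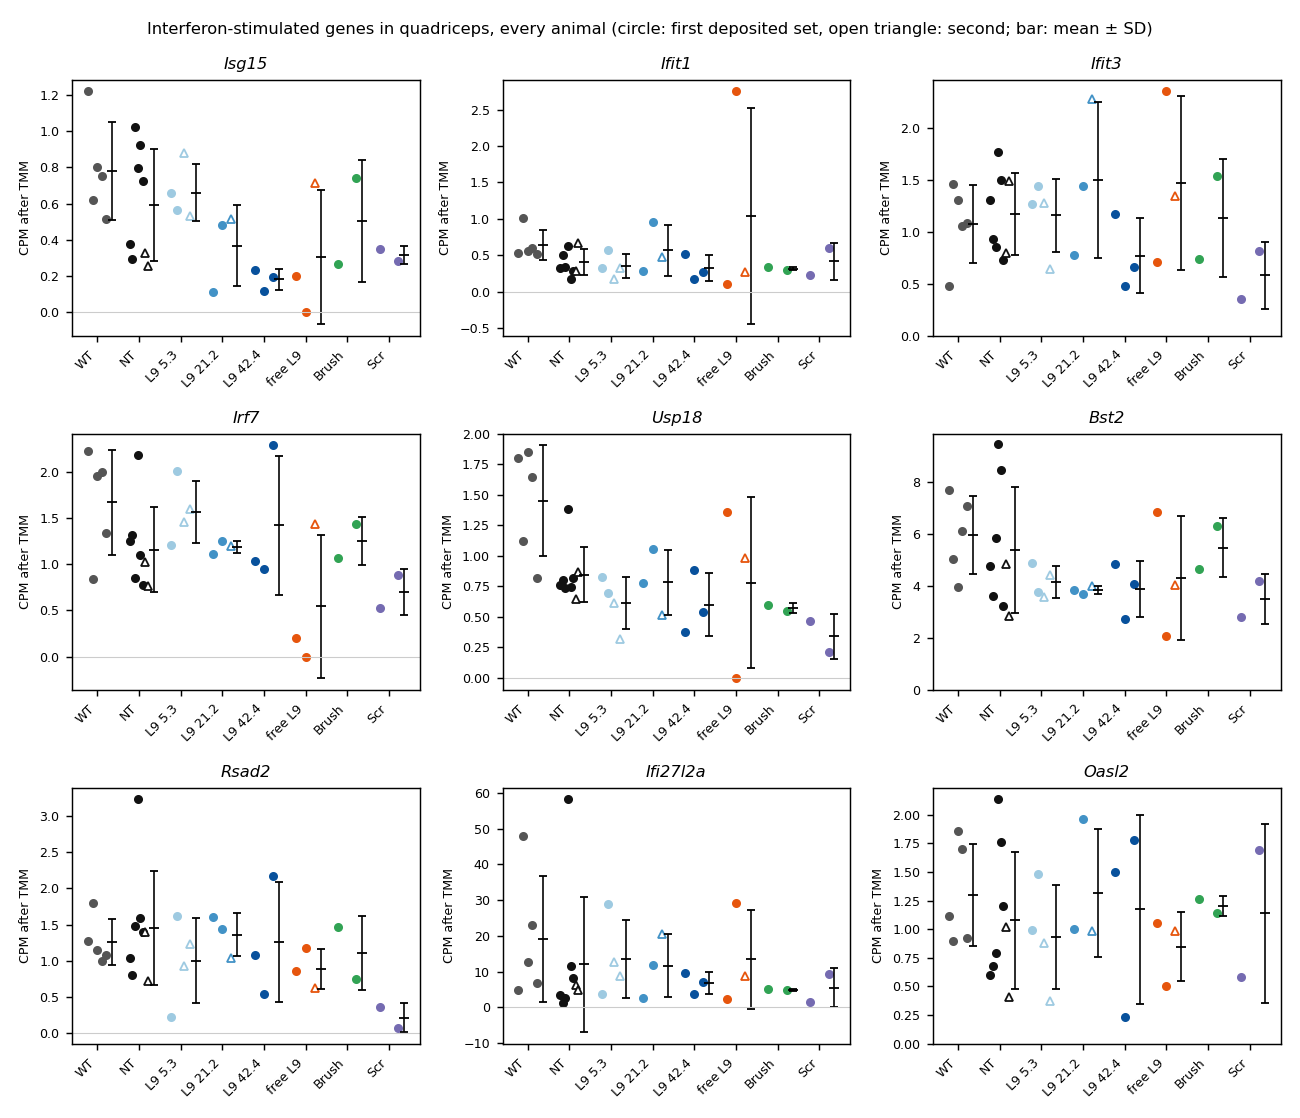
CPM of the 9 interferon-stimulated genes (vertical axes, linear, 1 panel a gene) in each of 30 mice by group, with the group mean ± SD beside the points; filled circles are the first deposited set and open triangles the second. Most genes stay under 3 CPM in every mouse, the points of treated groups lie among those of NT and WT for most genes, and Ifi27l2a reaches 58.2 CPM in an NT mouse.

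The disease model was compared first, to place the genes before any treatment. Of the 9 genes, 0 passed in NT against WT by either tool, where 4.97% of all genes tested did, and the count at an unadjusted p under 0.05 was 0 with edgeR and 1 with DESeq2. Estimates were lower in NT for 7 genes and higher for *Ifit3* and *Rsad2*, with 47.3% of all genes tested lower. The median was -0.40 on the log2 scale, beside 0.03 over all genes tested. *Usp18* had the smallest p. It stood at 0.822 to 1.86 CPM in WT and 0.650 to 1.39 CPM in NT, with means of 1.45 ± 0.455 (SD, n = 5) and 0.847 ± 0.227 CPM (SD, n = 8). All 8 NT mice were below the WT median, yet the groups overlapped, as for all 9 genes (4.72% of all genes tested had no overlap), and the difference did not pass (log2 -0.77, SE 0.48, adjusted p = 0.370). The highest upper 95% bound for NT over WT was 2.14-fold, for *Rsad2*.

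Free polymer was given to ask whether the carrier alone acts on muscle. In the 2 Brush mice, *Isg15* measured 0.266 and 0.743 CPM, *Ifit1* 0.333 and 0.297 CPM, *Irf7* 1.07 and 1.44 CPM and *Rsad2* 1.47 and 0.743 CPM. *Ifi27l2a* measured 4.99 and 4.76 CPM and *Bst2* 4.66 and 6.29 CPM. All of these values lay inside the range of the 8 NT mice. None of the 9 passed, by edgeR or DESeq2, and 0 had an unadjusted p under 0.05 by either tool, and 0% of all genes tested passed with edgeR. *Usp18*, at 0.599 and 0.545 CPM, was below every NT mouse, and 2.8% of all genes tested had no overlap with NT in either direction. The log2 changes ran from -1.31 for *Ifi27l2a* to 0.16 for *Oasl2* with a median of -0.21, beside -0.04 over all genes. With 2 mice the intervals were wide, and their upper bounds ran from 1.77-fold for *Bst2* to 2.90-fold for *Irf7*. An increase above 2.90-fold therefore lay outside the 95% interval of each of the 9 genes.

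The scrambled conjugate carries an oligonucleotide of another sequence. In the 2 pacDNA-Scr mice, the viperin gene *Rsad2* measured 0.352 and 0.0704 CPM, from 6 and 2 counts. It measured 0.717 to 3.23 CPM in NT, with a median of 1.40, from 14 to 77 counts. Both Scr mice were below every NT mouse (log2 -2.81, SE 0.75, unadjusted p = 0.000917), but after adjustment over all genes the difference did not pass with edgeR (adjusted p = 1) and did with DESeq2 (log2 -2.94, adjusted p = 0.00582). DESeq2 passed 311 genes in that comparison, 0 of them higher and 311 lower. Over the other settings tried and the fits with a mouse left out, the log2 change of *Rsad2* ran from -4.26 to -2.03. *Usp18*, at 0.469 and 0.211 CPM, was the other gene with no overlap, and 2.35% of all genes tested had none. With edgeR 0% of all genes tested passed. Estimates were lower for 7 genes, with 54.3% of all genes tested lower, and the median was -0.89, beside -0.03 over all genes tested. None of the 9 was raised past the threshold, and the highest upper bound was 3.05-fold, for *Ifit1*.

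Free L9 at 5.3 mg/kg was given without a carrier. The 3 mice disagreed. *Irf7* measured 0.201 CPM in mouse A (4 counts), 0 in mouse B and 1.43 CPM in mouse C. *Isg15* measured 0.201, 0 and 0.715 CPM and *Usp18* 1.36, 0 and 0.984 CPM. A count of 0 in mouse B allows up to 3 counts, or 0.168 CPM. *Ifit1* went the other way in that mouse, with 0.101, 2.75 and 0.268 CPM against 0.176 to 0.666 CPM in NT, and *Ifit3* reached 2.36 CPM there against 0.722 to 1.76 CPM in NT. Mouse B thus held the highest *Ifit1* and *Ifit3* of all 30 mice and no count of *Isg15*, *Irf7* or *Usp18*. None of the 9 passed by either tool, where 0.126% of all genes tested did with edgeR, and 1 (*Ifit1*) had an unadjusted p under 0.05 with edgeR and 2 with DESeq2. In no gene were the groups free of overlap, which 1.21% of all genes tested were.

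For *Ifit1* the log2 change was 1.37 (SE 0.61, adjusted p = 0.483), and without mouse B it was -1.18. For *Irf7* it was -1.14 (SE 0.66, adjusted p = 0.600). Without mouse C, which is the only free L9 library of the second deposited set, *Irf7* was lower by 3.42 on the log2 scale and passed (adjusted p = 0.0166), and it passed in the first deposited set alone (log2 -3.50, adjusted p = 0.0233). Mouse B, which stood apart in genes detected and in mitochondrial counts, is in both of those fits, and without it the estimate was -0.57. Thus the direction of *Ifit1* rested on mouse B, and *Irf7* passed only in fits that left out mouse C. In mouse A, too, *Irf7* was below every NT mouse (0.201 CPM against 0.769 to 2.18 CPM). The fit without mouse B still held mouse C, so it cannot show whether the call rested on mouse B alone. In both fits that called *Irf7*, more of all genes tested passed than in the fit with all 30 libraries.

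pacDNA-L9 joins L9 and the carrier, and its dose was raised from 5.3 to 42.4 mg/kg. At 5.3 mg/kg none of the 9 passed by edgeR or DESeq2, 0 had an unadjusted p under 0.05 by either tool, and 0% of all genes tested passed with edgeR. The mice measured 0.534 to 0.881 CPM of *Isg15*, 1.21 to 2.01 of *Irf7*, 0.176 to 0.567 of *Ifit1*, 0.640 to 1.44 of *Ifit3*, 0.374 to 1.48 of *Oasl2*, 3.57 to 4.89 of *Bst2* and 0.220 to 1.61 CPM of *Rsad2*. No gene was free of overlap with NT, and 0.297% of all genes tested were. The log2 changes ran from -0.54 for *Rsad2* to 0.43 for *Irf7*. The upper bounds ran from 1.20-fold for *Bst2* to 3.87-fold for *Ifi27l2a*.

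At 21.2 mg/kg the result was similar. None of the 9 passed by either tool or had an unadjusted p under 0.05 (0 with edgeR, 0 with DESeq2), and 0.0514% of all genes tested passed with edgeR. *Isg15* measured 0.111, 0.480 and 0.515 CPM, *Irf7* 1.11, 1.25 and 1.20 CPM and *Ifit3* 0.777, 1.44 and 2.27 CPM. The third *Ifit3* value, from the second deposited set, was above every NT mouse and the first was below the NT median. In no gene did the groups avoid overlap, which 0.868% of all genes tested did. The log2 changes ran from -0.66 for *Isg15* to 0.50 for *Ifit1*, with upper bounds of 1.16-fold for *Bst2* to 3.86-fold for *Ifi27l2a*.

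At 42.4 mg/kg 2.57% of all genes tested passed with edgeR, and again 0 of the 9. *Isg15* came closest. It measured 0.234, 0.118 and 0.194 CPM (5, 2 and 5 counts) against 0.256 to 1.02 CPM with a median of 0.551 in NT (5 to 21 counts). All 3 treated mice were below every NT mouse, and 7% of all genes tested had no overlap in either direction. The log2 change was -1.65 (SE 0.72, 95% interval -3.14 to -0.17) with an unadjusted p of 0.0301, and it did not pass (adjusted p = 0.332). It was the single gene with an unadjusted p under 0.05 by edgeR, and DESeq2 also gave 1 and passed 0. Over the other settings tried the log2 change ran from -1.89 to -1.61 and the adjusted p from 0.108 to 0.497. The 42.4 mg/kg libraries are among 9 of the first deposited set with a short column name in the count table. That name is made of a group and a running number. In these 9 libraries 14438 to 18634 genes were detected at equal depth, against 18637 to 21070 in every other library. The part of this difference in the level of *Isg15* was not tested. The others of these 9 measured 0.722 CPM of *Isg15* in NT, 0.514 in WT, 0.743 in Brush, 0.282 in pacDNA-Scr, and 0.201 and 0 CPM in free L9.

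The other 8 genes overlapped with NT at 42.4 mg/kg. *Irf7* measured 1.03, 0.945 and 2.29 CPM, *Rsad2* 1.08, 0.531 and 2.17 CPM and *Oasl2* 1.50, 0.236 and 1.78 CPM, so that mouse B was low and mouse C high in all 3. *Ifit1* measured 0.516, 0.177 and 0.271 CPM, *Usp18* 0.375, 0.886 and 0.542 CPM and *Bst2* 4.83, 2.72 and 4.07 CPM. Estimates were lower for 7 of the 9, with 56.7% of all genes tested lower, and the median was -0.47 beside -0.06. The upper bounds ran from 0.887-fold for *Isg15* to 2.83-fold for *Irf7*, so that at the highest dose an increase above 2.83-fold lay outside the interval of each gene. These intervals are for single genes, without adjustment over the 9.

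**Figure D2:**
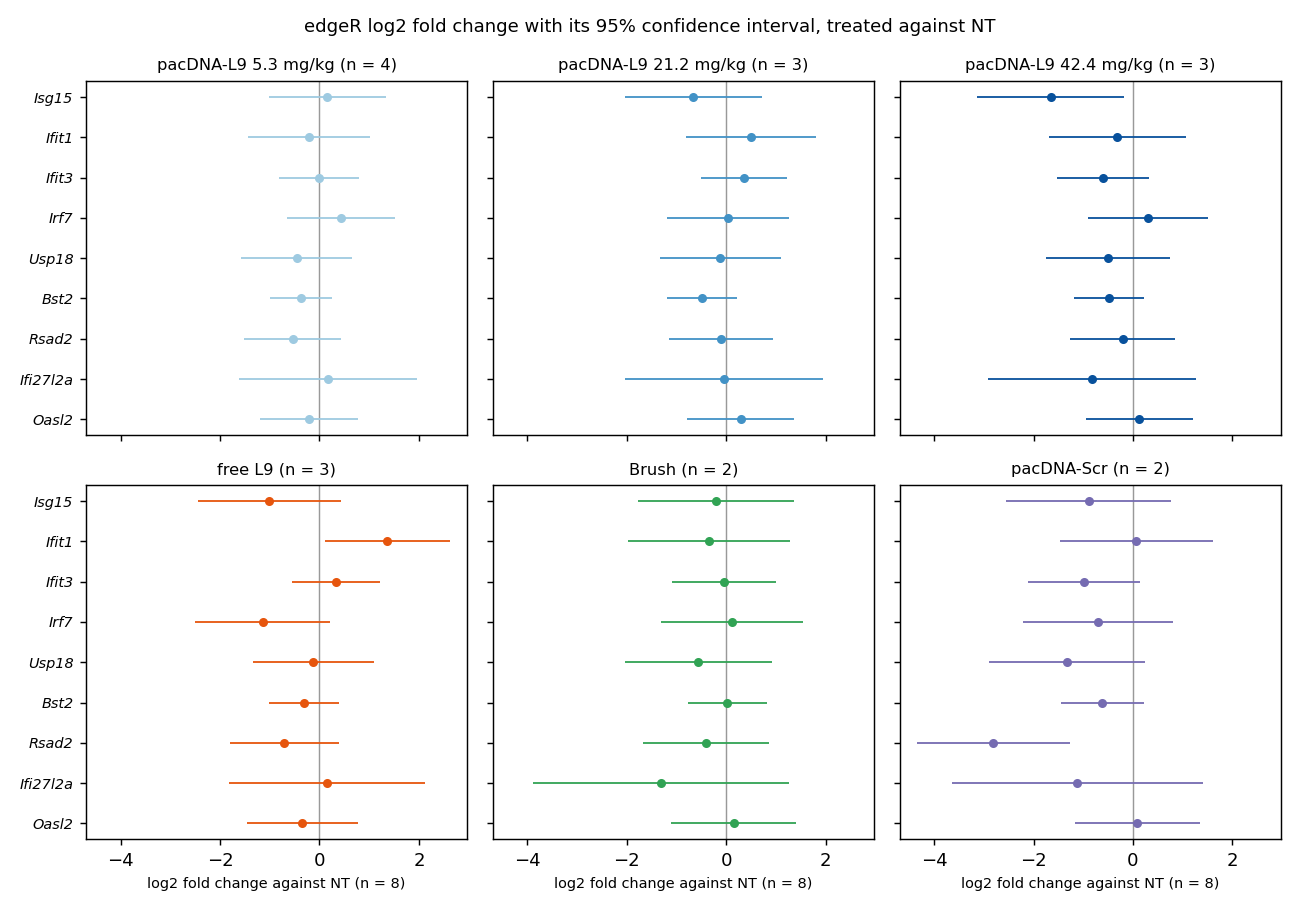
Log2 fold change against the 8 NT mice (horizontal axis) with its 95% confidence interval for the 9 interferon-stimulated genes (vertical axis), 1 panel for each treated group, from edgeR. Nearly all intervals include 0; those of Isg15 at 42.4 mg/kg and Rsad2 in pacDNA-Scr lie below it, that of Ifit1 in free L9 above it, and none of the 3 passed after adjustment.

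The trend over NT and the 3 doses used 18 libraries. None of the 9 passed with edgeR, where 2.66% of the 16661 genes tested did. *Isg15* had a slope of -0.40 log2 units per 10 mg/kg (SE 0.13), an unadjusted p of 0.00465 and an adjusted p of 0.103. Group means of *Isg15* were 0.591 ± 0.310 CPM in NT (SD, n = 8), 0.660 ± 0.157 at 5.3 mg/kg (SD, n = 4), 0.369 ± 0.224 at 21.2 mg/kg (SD, n = 3) and 0.182 ± 0.0591 CPM at 42.4 mg/kg (SD, n = 3). The slope passed with DESeq2 (adjusted p = 0.0493) and with sex as a covariate (adjusted p = 0.0313), while the other settings reached an adjusted p of up to 0.419. The slopes of the other 8 lay between -0.19 per 10 mg/kg for *Ifi27l2a* and 0.06 for *Oasl2*. *Isg15* was thus the only one with an unadjusted p under 0.05, and its direction was down.

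At the matched dose of 5.3 mg/kg, L9 on the carrier was compared with free L9 and with the scrambled conjugate, and the latter with free L9. In these 3 pairs, too, 0 of the 9 genes passed by edgeR or DESeq2. Against free L9, pacDNA-L9 had *Irf7* at 1.21, 2.01, 1.45 and 1.60 CPM beside 0.201, 0 and 1.43 CPM (log2 1.58, SE 0.72, adjusted p = 0.594). It had *Ifit1* at 0.176 to 0.567 CPM beside 0.101, 2.75 and 0.268 CPM (log2 -1.57, SE 0.73, adjusted p = 0.601). They were the 2 genes with an unadjusted p under 0.05 with edgeR, DESeq2 gave 2 as well, and 0.0114% of all genes tested passed. For 0 of the 9 were these groups free of overlap, which 4.26% of all genes tested were. Without free L9 mouse C, *Irf7* passed (log2 3.85, adjusted p = 0.0123), and without mouse B it did not (log2 1.00).

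Against pacDNA-Scr, pacDNA-L9 differed by the sequence of the oligonucleotide. *Rsad2* measured 0.220, 1.61, 0.925 and 1.23 CPM beside 0.352 and 0.0704 CPM (log2 2.27, SE 0.76, adjusted p = 0.882), and pacDNA-L9 mouse A lay between the 2 Scr mice. *Isg15* and *Irf7* were higher in all 4 pacDNA-L9 mice than in both Scr mice without passing (adjusted p = 0.907 and 0.886), and 11.3% of all genes tested had no overlap in this pair of small groups. The 95% interval for *Isg15* ran from -0.73 to 2.83 on the log2 scale. Of the 9, *Rsad2* alone had an unadjusted p under 0.05 with edgeR and 1 gene did with DESeq2, and 0% of all genes tested passed. For pacDNA-Scr against free L9, *Rsad2* (log2 -2.10, SE 0.78, adjusted p = 0.703) and *Ifit3* (log2 -1.31, SE 0.61, adjusted p = 0.703) had an unadjusted p under 0.05, DESeq2 gave 2, and 0% of all genes tested passed. *Rsad2* was lower in both Scr mice than in the 3 free L9 mice, and 11.3% of all genes tested had no overlap.

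Among the NT mice *Ifi27l2a* varied most of the 9. Over the 30 mice it ran from 1.23 to 58.2 CPM, a 47.3-fold range, while *Bst2* ran over 4.57-fold and *Ifit3* over 6.71-fold. For 5 of the other genes the lowest mouse had 0 or 2 counts, so that no such range is given for them. Within NT it measured 3.58, 1.23, 2.50, 58.2, 11.6, 8.14, 6.13 and 4.97 CPM in mice 1 to 8. In WT mouse 2 it measured 48.1 CPM against 4.93 to 23.1 CPM in the other 4. The SD of its log2 level within NT was 1.63, beside 0.30 to 0.72 for the other 8, which was above that of 87.3% of the 7916 genes tested with a mean CPM in the range of the 9. The groups were not told apart by it, since the 6 log2 changes against NT ran from -1.31 to 0.17 with standard errors of 0.86 to 1.25. At 42.4 mg/kg it changed sign without NT mouse 4, from -0.82 to 0.32, and at 21.2 mg/kg from -0.04 to 1.10.

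Adipocyte markers moved with *Ifi27l2a*. The summed CPM of *Adipoq*, *Plin1* and *Cidec*, all 3 of which passed the filter, was 334 in NT mouse 4, 224 in WT mouse 2, 335 in free L9 mouse B, 222 in pacDNA-L9 5.3 mg/kg mouse B and 171 in WT mouse 4. In the other 25 mice it was 5.94 to 80.7 CPM. Those 5 mice were also the 5 with the most *Ifi27l2a*, with 58.2, 48.1, 29.1, 28.96 and 23.1 CPM against at most 20.5 CPM in the others. By group, the adipocyte sum ran from 19.2 to 224 CPM in WT, 5.94 to 334 in NT, 11.9 to 222, 11.5 to 74.2 and 18.6 to 24.2 at the 3 doses, 9.71 to 335 with free L9, 12.54 to 21.3 with Brush and 13.5 to 54.2 CPM with pacDNA-Scr. The part of adipocytes in the level of *Ifi27l2a* was not tested. Without the 5 mice, *Ifi27l2a* measured 1.23 to 11.6 CPM in 7 NT mice and 3.72 to 9.71 CPM at 42.4 mg/kg.

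**Figure D3:**
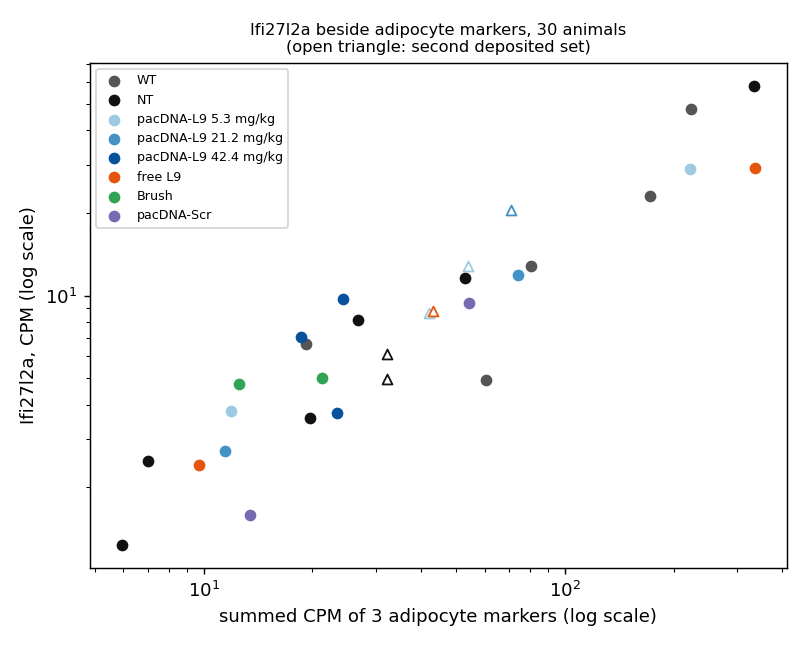
Ifi27l2a in CPM (vertical axis, log scale) against the summed CPM of 3 adipocyte markers (horizontal axis, log scale), 1 point a mouse, coloured by group, with open triangles for the second deposited set. The 5 mice at the upper right, 2 WT, 1 NT, 1 at 5.3 mg/kg and 1 free L9, have 171 to 335 CPM of the markers and 23.1 to 58.2 CPM of Ifi27l2a.

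NT mouse 4 was the highest NT mouse for 7 of the 9 genes, all but *Isg15* and *Ifit1*, and was above the NT median for all 9. It had 9.49 CPM of *Bst2*, 3.23 of *Rsad2*, 2.18 of *Irf7*, 2.14 of *Oasl2*, 1.76 of *Ifit3* and 1.39 CPM of *Usp18*. On the mean of the 9 log2 levels relative to the NT mean, it stood at 1.09, and the other 29 mice between -1.0 and 0.58. WT mice stood at 0.10 to 0.58, the 5.3 mg/kg mice at -0.27 to 0.47, the 21.2 mg/kg mice at -0.40 to 0.39, the 42.4 mg/kg mice at -0.87 to -0.03, Brush at -0.20 and -0.01, pacDNA-Scr at -1.0 and -0.49, and free L9 at -0.64 to 0.01.

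The 9 genes moved together loosely. Over the 24 mice of the first set, the correlation of log2 CPM between 2 of the genes had a median Pearson r of 0.28 over 36 pairs, from -0.39 to 0.65, and without free L9 mouse B it was 0.36, from 0.05 to 0.61. Part of this is shared by design, since the pairs share mice and depth. The 6 other genes whose pattern was most like the mean of the 9 over these 24 mice were *Slc25a10* (r = 0.83), *Hcar1* (0.79), *Mpdu1* (0.79), *Psmb8* (0.79), *Cebpa* (0.78) and *Chst1* (r = 0.77). Without free L9 mouse B, only *Hcar1* (r = 0.89) and *Chst1* (0.82) stayed among the first 6, and *Adrb3* (0.86), *Acsl5* (0.85), *A530016L24Rik* (0.83) and *Tkt* (r = 0.83) took the places of the rest. *Psmb8*, an immunoproteasome subunit, is an interferon target, whereas *Hcar1*, a lactate receptor, and *Cebpa*, a transcription factor, are known from fat cells.

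Other cell types were followed by marker lists. The 7 macrophage markers (*Adgre1*, *Csf1r*, *Cd68*, *C1qa*, *C1qb*, *Mrc1*, *Cd163*) summed to 45.1 to 78.2 CPM in NT and 37.7 to 61.03 CPM in WT. They summed to 87.0 to 107, 70.5 to 127 and 118 to 170 CPM at the 3 rising doses, 107 to 117 CPM for Brush, 66.2 to 83.6 CPM for pacDNA-Scr and 40.7 to 64.7 CPM for free L9. Of the 7, 5 rose past the threshold at 42.4 mg/kg against NT (*Csf1r*, *Cd68*, *C1qa*, *C1qb*, *Cd163*), where 2.57% of all genes tested passed. *Cd68* also passed, higher, at 21.2 mg/kg against NT and in NT against WT. Of all genes tested, 0.0514% and 4.97% passed in these 2 comparisons. The part of macrophages in the interferon-stimulated genes was not tested. Other immune markers were scarce. Monocyte and neutrophil markers summed to at most 4.43 CPM, with *Ly6g* at 0 in all groups but NT, and B cell markers to at most 2.08 CPM. T and NK cell markers summed to 1.69 to 1.94 CPM at 42.4 mg/kg and 0 to 1.44 CPM in NT. Of these 6 markers only *Cd4* was abundant enough to test, and it rose at 42.4 mg/kg. Of the 5 plasmacytoid dendritic cell markers 3 passed the filter. The markers summed to 28.5 to 63.2 CPM over all mice, in part through *Tcf4*, which many cells express. At 42.4 mg/kg they summed to 28.5 to 38.5 CPM against 40.7 to 56.4 CPM in NT. Of the 3 tested, 0 passed at that dose.

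**Figure D4:**
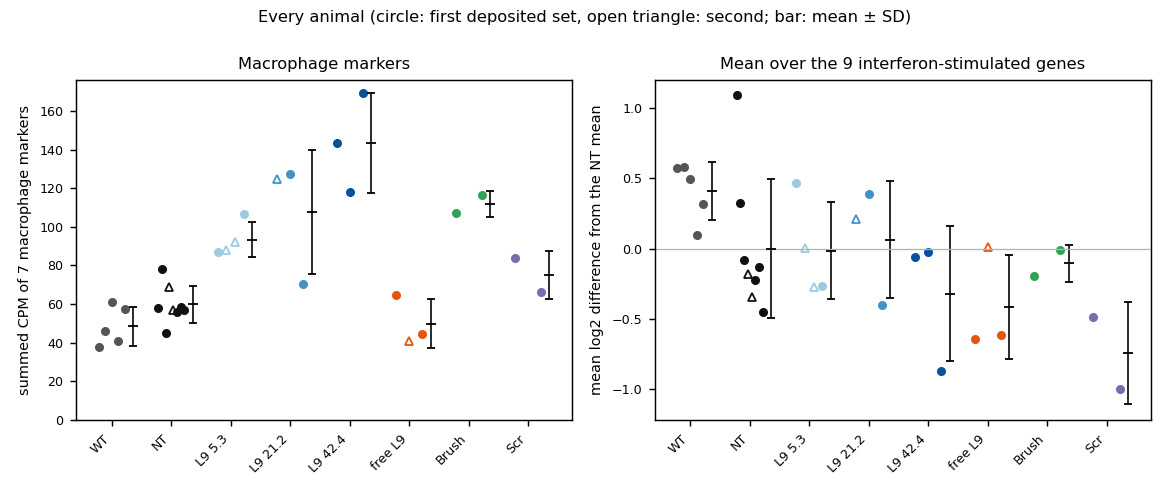
Left, summed CPM of 7 macrophage markers in each mouse by group; right, the mean over the 9 interferon-stimulated genes of the log2 difference from the NT mean, in the same mice, with group means ± SD and open triangles for the second deposited set. Macrophage markers reach 118 to 170 CPM at 42.4 mg/kg against 45.1 to 78.2 CPM in NT, while the interferon-stimulated genes lie at -0.87 to -0.03 there and the highest mouse, at 1.09, is an NT mouse.

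The rest of the pathway was described with 7 lists of 142 genes, of which 108 were tested. With edgeR, 0 of the 108 passed at the lower and middle doses of pacDNA-L9 or in mice given free L9, polymer or scrambled conjugate against NT, nor in the 3 matched pairs. For free L9 against NT, 1 passed in the first deposited set alone (*Eif2ak2*) and 1 without free L9 mouse C (*B2m*), both higher, and *Eif2ak2* is named after its value was seen. The counts at an unadjusted p under 0.05 with edgeR were 0, 5, 13, 0 and 5 of the 108 for the lower and middle doses, free L9, Brush and pacDNA-Scr. Over all 17518 genes tested they were 250, 290, 1641, 217 and 182 in the same order. At 42.4 mg/kg they were 26 of the 108 and 2294 of all genes tested. Other antiviral effectors (48 genes, 42 tested) included the *Mx*, *Oas* and *Ifitm* genes. In edgeR's fit to all 30 libraries they gave 0 at every dose and with every control agent. Their median log2 change was 0.15, -0.01 and -0.18 at the 3 rising doses, 0.14 for free L9, 0.02 for Brush and -0.12 for the scrambled conjugate.

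The 2 most expressed genes of each list did not pass in any treated group with edgeR, *Irgm2* at 42.4 mg/kg excepted. *Trafd1*, an interferon-inducible regulator, changed by -0.09 to 0.19 on the log2 scale over the 6 treated groups, and *Ifitm3*, which blocks entry of viruses, by -0.29 to 0.47. Of the receptors, *Ifngr1* ranged from -0.17 to 0.67, where the value of 0.67 at 42.4 mg/kg had an adjusted p of 0.0620 with edgeR and passed with DESeq2, and *Ifngr2* from -0.59 to 0.08, and of the inhibitors *Ptpn11* from -0.35 to 0.30 and *Irf2bp2* from -0.15 to 0.55. Of the kinases, *Jak1* ranged from -0.15 to 0.37 and *Jak2* from -0.29 to 0.14, and the GTPase gene *Irgm1* ranged from -0.38 to 0.21. Of the MHC class I genes, *H2-D1* ranged from -0.33 to 0.29 and *B2m* from -0.41 to 1.21, with a smallest adjusted p of 0.363 for *B2m*.

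At 42.4 mg/kg 4 of the 108 passed with edgeR, where 2.57% of all genes tested did. *Irgm2* and *Igtp*, GTPases that interferon gamma induces and that restrict pathogens in vacuoles, fell. *Irgm2* measured 1.83, 1.54 and 3.72 CPM against 6.13 to 14.7 CPM in NT with a median of 8.30 (log2 -1.95, SE 0.35, adjusted p = 0.00172). *Igtp* measured 4.08, 2.95 and 3.45 CPM against 6.13 to 17.6 CPM with a median of 9.64 (log2 -1.52, SE 0.32, adjusted p = 0.00733). *Irf9*, a DNA-binding factor of the type I response, fell from 5.02 ± 0.960 CPM (SD, n = 8) to 2.69 ± 0.959 CPM (SD, n = 3; log2 -0.90, SE 0.23, adjusted p = 0.0302). *Ticam1*, the adaptor TRIF of Toll-like receptor 3, rose from 4.89 ± 0.552 CPM (SD, n = 8) to 9.26 ± 1.95 CPM (SD, n = 3; log2 0.92, SE 0.22, adjusted p = 0.0217). For all 4 genes the 3 treated mice lay outside the range of the 8 NT mice, as for 7% of all genes tested. The 4 were named because they passed in this comparison, so the lack of overlap is not separate evidence. With DESeq2, 13 of the 122 wider genes tested passed at this dose, 2 of them higher, where 1366 of 19216 genes tested did. Besides these 4 they were *Parp9*, *Shfl*, *Ifngr1*, *Gbp4*, *Gbp9*, *Iigp1*, *Tgtp1*, *Tgtp2* and *Gvin1*.

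In the list of interferon gamma targets and GTPases (24 genes, 19 tested), 2 fell, 0 rose and 17 did not pass with edgeR. An unadjusted p under 0.05 was found for 10 of the 19, and for 2294 of the 17518 genes tested. Estimates were lower for 18 of the 19, with 56.7% of all genes tested lower. The median was -1.43 beside -0.06 over all genes tested. With Brush the median of the list was -0.51, with pacDNA-Scr -0.996, at the lower and middle doses -0.44 and -0.64, and for free L9 -0.06, and 0 of its genes passed in any of these. In the trend *Irgm2* (slope -0.41 per 10 mg/kg, adjusted p = 0.00962), *Igtp* (-0.33, adjusted p = 0.0139), *Gbp9* (-0.29, adjusted p = 0.0421) and *Irf9* (-0.20, adjusted p = 0.0419) fell with dose, and *Ticam1* (0.19, adjusted p = 0.0190) rose, which made 5 of 102 tested, where 2.66% of all genes did. With 1 mouse left out, *Gbp9* lost its call in 14 of 18 fits and *Irf9* in 13 of 18, while *Irgm2* lost it in 1 and *Igtp* and *Ticam1* in 2 each. Without 42.4 mg/kg mouse B, 0 of the 108 passed at that dose, with *Irgm2* at an adjusted p of 0.0559 and *Igtp* at 0.126. Over the 11 fits with a mouse left out, the log2 change at that dose ran from -2.44 to -1.72 for *Irgm2* and from -1.65 to -1.35 for *Igtp*, while *Irf9* lost its call in 5 of them and *Ticam1* in 2. With the naming group as a covariate in the first set only *Irgm2* passed. In the 6 other libraries of that naming group *Irgm2* measured 19.0 CPM in WT, 7.13 in NT, 8.92 in Brush, 8.10 in pacDNA-Scr, and 7.95 and 17.0 CPM in free L9.

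**Figure D5:**
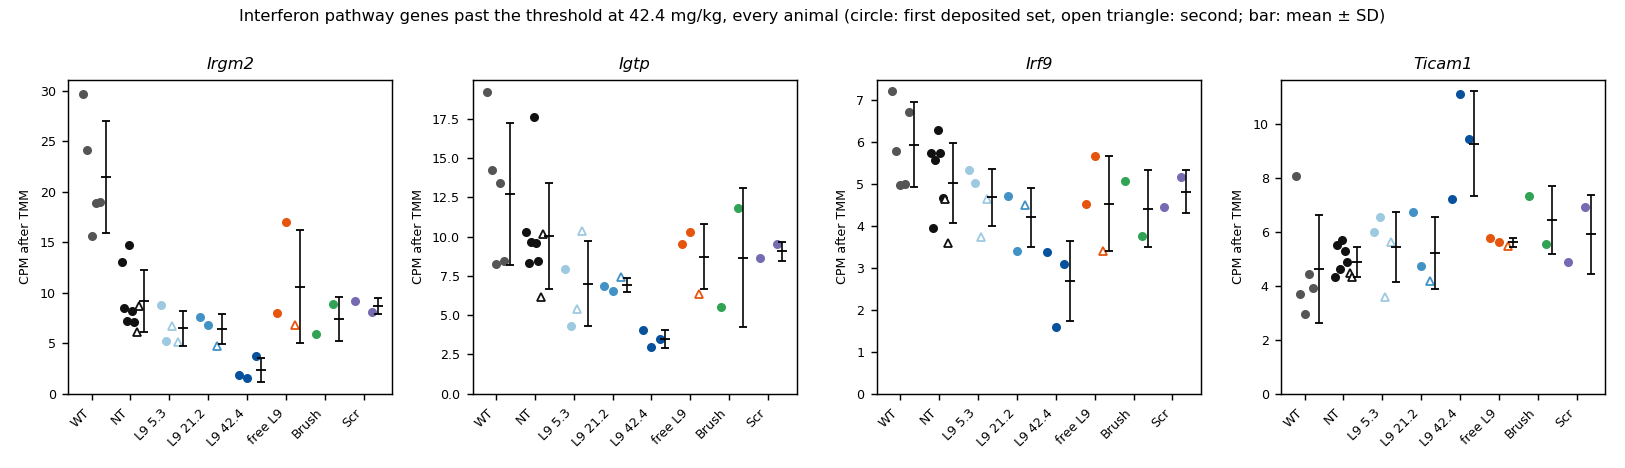
CPM (vertical axes, linear from 0) of the 4 interferon pathway genes that passed with edgeR at 42.4 mg/kg against NT, in each mouse by group, with mean ± SD and open triangles for the second deposited set. Irgm2, Igtp and Irf9 lie below all NT mice at 42.4 mg/kg and Ticam1 above them, and WT mice have 15.6 to 29.7 CPM of Irgm2.

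Between NT and WT 5 of the 108 passed, where 4.97% of all genes tested did. *Tor3a* lost its call in 9 of 13 fits with a mouse left out and *Ptpn2* in 7, and the other 3 in 0. *Irf5*, a transcription factor of cytokine genes, was higher in NT, at 25.8 ± 8.13 CPM (SD, n = 8) against 4.72 ± 0.988 CPM (SD, n = 5; log2 2.45, SE 0.25, adjusted p = 3.2e-07). *Jak2*, a kinase of the interferon gamma receptor, was higher too (log2 0.86, SE 0.15, adjusted p = 0.000758). So were *Tor3a* (log2 0.52, adjusted p = 0.0426) and *Ptpn2* (log2 0.51, adjusted p = 0.0286), a phosphatase of JAK kinases. *Irgm2* was lower in NT, at 9.19 ± 3.06 CPM (SD, n = 8) against 21.5 ± 5.52 CPM (SD, n = 5; log2 -1.22, SE 0.25, adjusted p = 0.00300), so that it was lower in NT than in WT and lower again at 42.4 mg/kg than in NT. *Irf5* at 42.4 mg/kg (log2 -0.79, SE 0.28, adjusted p = 0.163) did not pass.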

How the data were processed

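Quadriceps libraries from 30 mice were sequenced as paired reads of 150 bases. The authors trimmed and mapped the reads to GRCm39 (the submitters' processing notes name HISAT2 2.0.5) and deposited raw counts per Ensembl gene, with no normalization. Columns were matched to mice by their labels. A WT column whose name carries no replicate number is called unnumbered.

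Differential expression was tested in R 4.3.3 with edgeR 4.0.16: filterByExpr, TMM, 1 coefficient for each of 8 conditions over all 30 libraries, robust quasi-likelihood F-tests, and Benjamini-Hochberg adjustment over all genes tested. The SE is the size of the log2 fold change divided by the square root of F. The dose trend was fitted to NT and the 3 doses. DESeq2 1.42.0, other normalizations, no filter, covariates, subsets, a replicate block and each mouse left out were alternatives. The model was tested on simulated data. Symbols and coordinates came from GENCODE vM39, which held 56017 of the 56748 IDs.

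Replicate letters paired pacDNA-L9 5.3 mg/kg with free L9 by the check of deviations (r = 0.53, 0.41 and 0.68 for A, B and C), where the C libraries are both in the second set. Unlike letters within the first set also correlated (r = 0.43 and 0.31), and those across the sets gave -0.69 to -0.32, so that the values follow the deposited set. The labels do not say that the mice were littermates or treated together, so p-values measure the spread between these animals. The main fit has no term for the deposited set. In groups that hold both sets, that spread therefore includes differences between the sets.

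The 9 genes and the gene lists were chosen with earlier results of these data known. Named were all 9 genes and, from each wider list, up to 6 genes past the threshold by p, or the 2 with the highest CPM where none passed. Intervals and limits on counts of 0 cover counting error or the model's error only.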

Additional observations from a re-analysis of the deposited data

Results flagged for a closer look

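In groups of 4 to 10 mice, the highest and the lowest mouse of each of the 9 genes were compared with the rest by Dixon's test, in 27 combinations of gene and group. Of these, 5 had a mouse apart. Chance gives about 1 in 20 for independent combinations, but these share mice, so that the count cannot be set against that rate. In NT mouse 4, *Ifi27l2a* was at 58.2 CPM against 1.23 to 11.6 CPM in the other 7 NT mice, *Rsad2* at 3.23 against 0.717 to 1.59 CPM, *Irf7* at 2.18 against 0.769 to 1.31 CPM and *Usp18* at 1.39 against 0.650 to 0.871 CPM. This is the NT mouse with 334 CPM of adipocyte markers, whose part in these values was not tested. In WT mouse 2, *Ifit1* was at 1.01 CPM against 0.514 to 0.600 CPM in the other 4 WT mice, and that mouse had 224 CPM of adipocyte markers.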

How the results depend on the processing

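Of 231 counts of the 9 genes past the threshold under alternatives, 224 equalled the reported 0 and 7 were 1. That 1 was *Irf7* for free L9 against NT and for pacDNA-L9 5.3 mg/kg against free L9, each in the first deposited set alone and without free L9 mouse C (0 to 1 over the mice left out), *Rsad2* for pacDNA-Scr against NT with DESeq2, and *Isg15* for the dose trend with DESeq2 and with sex as a covariate. The cause was not tested. With the replicate block 0 of the 9 passed in NT against WT and in the 3 matched pairs, as in fits without the block on the same libraries, which were added after seeing the data, so that it changed no call. For NT against WT it used mice 1 to 4 of each group, since the remaining WT column carries no number, and the numbers did not pair these mice (r from -0.03 to 0.14).

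None of the values that reversed passed the threshold. A sign was counted as reversed where the log2 value also moved by more than 1 SE, in 24 of 2157 values, and 136 smaller sign changes were not counted. At 21.2 mg/kg *Ifit3* was -0.0946 in the first set alone, -0.0739 with the naming group as a covariate and -0.0845 with the 5 libraries at 0 mitochondrial counts left out. With each mouse left out in turn, *Ifit3* ran from -0.0751 (without mouse C) to 0.67 and *Ifi27l2a* from -0.72 to 1.10 (without NT mouse 4), and at 42.4 mg/kg *Ifi27l2a* ran from -1.16 to 0.32 (without NT mouse 4). For free L9 against NT, *Ifit1* ran from -1.18 to 1.92, *Ifit3* from -0.23 to 0.67 and *Ifi27l2a* from -1.15 to 1.30, each lowest without mouse B. For pacDNA-Scr against NT, *Ifit1* ran from -0.76 to 0.57 and *Oasl2* from -0.87 to 0.64, each lowest without mouse B. For pacDNA-L9 5.3 mg/kg against free L9, *Ifit1* ran from -2.14 to 0.97 and *Ifit3* from -0.69 to 0.21, each highest without free L9 mouse B, and *Usp18* from -0.91 to 0.40 and *Bst2* from -0.38 to 0.46, each highest without free L9 mouse A. In that pair *Usp18* was 0.48 with the replicate block and *Rsad2* -0.70 with the naming group as a covariate. For pacDNA-L9 5.3 mg/kg against pacDNA-Scr, *Ifit1* ran from -0.77 to 0.56 and *Oasl2* from -0.85 to 0.66, each highest without pacDNA-Scr mouse B. For pacDNA-Scr against free L9, *Ifit1* ran from -2.12 to 1.25 (without free L9 mouse B), *Bst2* from -0.62 to 0.22 (without free L9 mouse A) and *Oasl2* from -0.52 (without pacDNA-Scr mouse B) to 1.00. The slope of *Ifit1* was 0.0135 per mg/kg with the naming group as a covariate, and that of *Irf7* ran from -0.00705 (without 42.4 mg/kg mouse C) to 0.00767 per mg/kg.

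Counts over all genes moved more. They were 871 for NT against WT (631 to 1972 over the alternatives), 9 at 21.2 mg/kg (0 to 16), 450 at 42.4 mg/kg (110 to 1366, and 63 without mouse B), 443 in the trend (4 to 820, and 19 without mouse B) and 22 with free L9 (0 to 397). For 5.3 mg/kg, Brush and pacDNA-Scr against NT they were 0, and 1, 83 and 311 with DESeq2. Of the wider genes, 4 of 108 passed at 42.4 mg/kg (1 with the naming group as a covariate, 13 of 122 with DESeq2). In the trend 5 of 102 passed (0 with the naming group as a covariate, 14 of 121 with DESeq2). There *Irf9* was lost in 4 and *Gbp9* in 3 of 9 alternatives. In NT against WT 5 of 108 passed (3 to 6 over the alternatives), with *Tor3a* and *Ptpn2* lost in 7 of 11 alternatives each. Depth limits the low genes most, since 3 counts correspond to 0.106 to 0.268 CPM and several mice had 2 to 6 counts of *Isg15*, *Ifit1* or *Rsad2*.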
